A study of Mus musculus with 3 samples.

Results

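The cytochrome P450, carboxylesterase and epoxide hydrolase genes were examined in capillary endothelium sorted from adult mouse glomeruli, where blood is filtered into the nephron. The members were chosen by gene symbol, as every P450 gene named by a family number, a letter and a gene number, the carboxylesterases Ces1 to Ces5, the epoxide hydrolases Ephx1 to Ephx4 and Por. The set was put forward with the high levels of Cyp4b1 and Ces2g on these same arrays already known. The levels of all members are therefore given as a description, without a test. Of 19938 genes that have a probe set of their own, 102 fit the pattern. They are 82 P450 genes, 16 carboxylesterase genes and 4 epoxide hydrolase genes. Por, the reductase that passes electrons to microsomal P450s, was not analysed here.

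The cells came from adult Tie2-GFP mice of mixed background, mainly CD-1, in which a Tie2 (Tek) promoter drives green fluorescent protein in endothelium. The transgene is carried by all samples, and GFP positive cells were sorted from sieved, collagenase and trypsin treated glomeruli. Each of the 3 arrays, which are replicates 1, 3 and 5, holds RNA of these sorted glomerular cells. The glomeruli for each array came from the cortex of an unpooled kidney, and the sex of the mice is not known. All belong to the same group, so there was no comparison between conditions. Levels are log2 signals, with the mean ± SD over 3 arrays (n = 3), and the detection level used below is 100, or 6.64 on the log2 scale.

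Cytochrome P450s are heme enzymes that insert an oxygen atom into lipids, steroids, vitamins and drugs, and most of them sit in the endoplasmic reticulum and receive electrons from POR. Carboxylesterases cleave ester and amide bonds of lipids and drugs in the same compartment, and epoxide hydrolases open the reactive epoxides that P450s produce. In blood vessels these enzymes are best known for the epoxides of arachidonic acid, which P450s of the CYP2C and CYP2J groups make and which soluble epoxide hydrolase degrades. Many of the drug metabolising members are best known from liver, and in the kidney several are known from the proximal tubule.

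Start sites of some of the genes that the results turn on are shown first, because Ces2g, Ces2e and Ephx1 share a short run of letters there. Each sequence is the 250 bases upstream of the transcription start from RefSeq, build GRCm38.p6, read 5′ to 3′ on the strand of the gene. The windows are chr4:115647722-115647971 (minus strand), chr8:104961468-104961717 and chr8:104926010-104926259 (plus strand) and chr1:181017570-181017819 (minus strand). Capitals mark matches on either strand. The letters searched for were the TATA box, spelled TATAAA, then CAGGAA as the core of sites for ETS factors, and GCGTG as the core of the element to which the aryl hydrocarbon receptor binds. A further run of letters, GGCAAAGT, was picked after the sequences had been read.
Cyp4b1: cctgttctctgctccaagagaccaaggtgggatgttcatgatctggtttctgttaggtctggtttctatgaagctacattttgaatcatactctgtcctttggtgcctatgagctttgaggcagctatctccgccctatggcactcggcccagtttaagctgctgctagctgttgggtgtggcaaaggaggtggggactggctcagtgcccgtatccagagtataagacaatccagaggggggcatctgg
Ces2g: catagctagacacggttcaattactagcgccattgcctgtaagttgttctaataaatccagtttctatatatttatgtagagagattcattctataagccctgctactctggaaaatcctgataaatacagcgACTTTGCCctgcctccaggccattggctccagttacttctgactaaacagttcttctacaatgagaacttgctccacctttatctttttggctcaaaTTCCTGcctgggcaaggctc
Ces2e: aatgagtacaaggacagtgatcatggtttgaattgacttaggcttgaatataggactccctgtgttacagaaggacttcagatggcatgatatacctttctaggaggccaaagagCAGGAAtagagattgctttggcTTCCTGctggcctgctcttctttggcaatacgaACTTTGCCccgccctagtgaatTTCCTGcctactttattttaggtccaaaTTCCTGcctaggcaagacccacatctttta
Ephx1: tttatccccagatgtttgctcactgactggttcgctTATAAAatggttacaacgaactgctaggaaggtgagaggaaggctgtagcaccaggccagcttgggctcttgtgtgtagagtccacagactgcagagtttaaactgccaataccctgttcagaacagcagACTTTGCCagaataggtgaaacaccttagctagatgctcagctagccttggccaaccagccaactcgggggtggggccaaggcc

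None of these letter runs lay in the window of Cyp4b1. The run GGCAAAGT, which reads ACTTTGCC as printed, lay 117 bases before the start of Ces2g, 80 before that of Ces2e and 84 before that of Ephx1. It was present in 0.914% of all 27025 genes with such a window, counted per gene, and in 0.801% of the 32851 windows. Of the 78 member genes with a window, 6 held it, and these included Ces2a and Ces2f, which are described below as low in these cells, and Cyp2c37. Ces2a, Ces2e, Ces2f and Ces2g lie in the same gene cluster, so the 6 are not separate cases. Cyp20a1, which was over the detection level and whose window is not printed, did not hold the run. The windows of Ces2g and Ces2e also shared a run of 13 letters, CAAATTCCTGCCT, which overlaps a CAGGAA match, 20 bases before the start of Ces2g and 30 before that of Ces2e. Counted per gene, CAGGAA was found in 30 of the 78 members and in 28.3% of all genes with a window. TATAAA was found in 26 of them and in 14.3% of all genes, and GCGTG in 15 and in 30.9%. A match describes the letters and is not a bound site.

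Few members were measured at the detection level. On all 3 arrays, 6 of the 102 genes (5.88%) were at or above 100, against 17.8% of all genes. Below 100 on every array were 95 members (93.1%), against 77.4% of all genes, and Cyp2j6 lay on both sides. The median level of the members was 3.68, and that of all genes was 5.02. Each gene was read against the detection level. Probe sets differ in how they respond, which limits a reading against a fixed level as well as one between genes or medians. A gene under 100 is not shown to be silent, since 100 is a convention taken over from the study. In sorted cells, too, fewer cells with a transcript and less of it per cell cannot be told apart. A second reference came from genes of the nose, as the 95th percentile over 1023 probe sets for olfactory receptors, at 28.9 or 4.85 on the log2 scale. On all arrays 81 of the 102 members were under it, against 8866 of all 19938 genes.

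**Figure D1:**
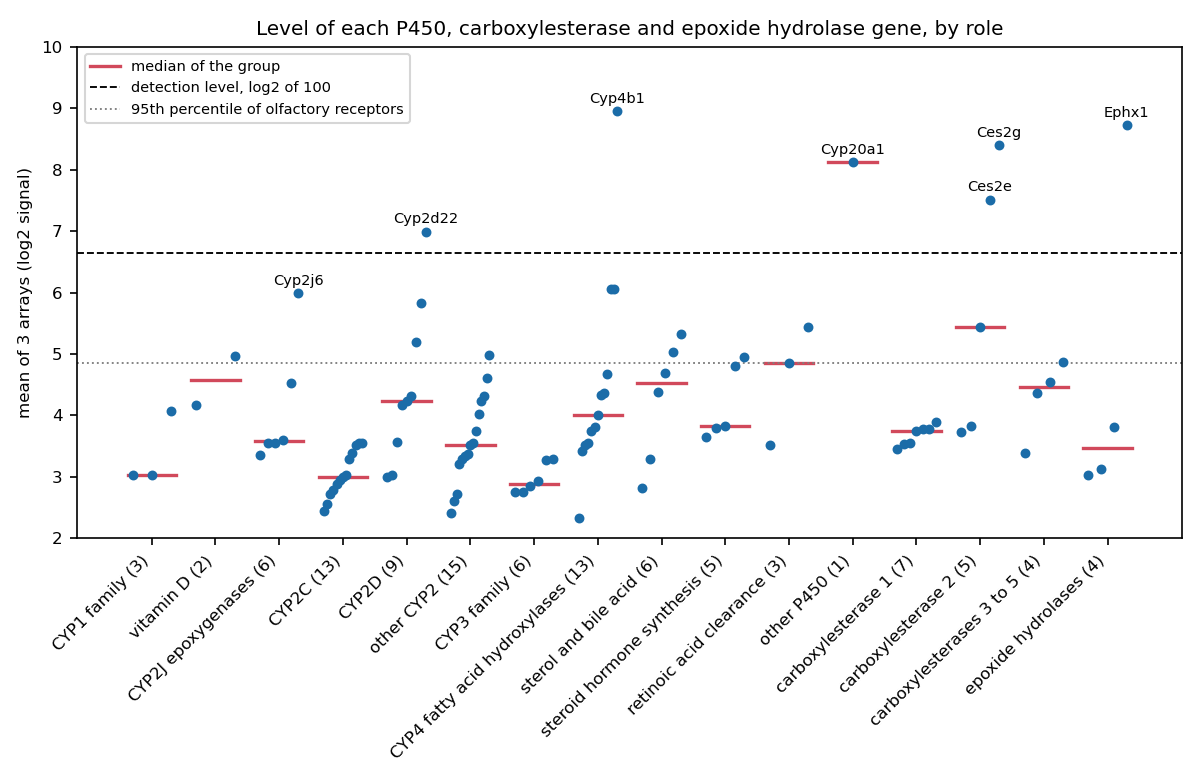
Mean log2 signal over 3 arrays for each of the 102 member genes (points), by role, with the number of genes in parentheses, the median of each group (red lines), the detection level of 100 (dashed) and the 95th percentile of olfactory receptors (dotted). Only Cyp4b1, Ephx1, Ces2g, Cyp20a1, Ces2e and Cyp2d22 lie above the dashed line. On all arrays 81 members lie under the dotted line, against 8866 of all 19938 genes (not plotted).

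Among the fatty acid hydroxylases of the CYP4 family, Cyp4b1 alone reached the detection level. Its enzyme hydroxylates fatty acids and activates protoxins, and in the mouse it is known from lung and kidney. Cyp4b1 had 9.31, 7.89 and 9.65 on replicates 1, 3 and 5, a mean of 8.95 ± 0.93. All arrays were over the level, and the difference of replicate 3 from the mean of the other two was -1.59. The highest and the lowest array differed 3.39-fold. The other 12 CYP4 genes were below 100 on every array. Closest to it were Cyp4f16, with 6.09 on replicates 1 and 3 and a mean of 6.06 ± 0.05, and Cyp4f13, with 5.94, 6.29 and 5.94. Cyp4a10 and Cyp4a14, fatty acid hydroxylases of the proximal tubule, had levels of 3.52 ± 0.18 and of 3.56 on each array. Cyp4a12a and Cyp4a12b, of the same gene cluster, lie outside the symbol pattern and were not analysed here.

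Carboxylesterases at the level came from a single subfamily. Ces2g had 8.48, 7.96 and 8.76 on replicates 1, 3 and 5 (8.40 ± 0.41), and Ces2e had 7.95, 6.90 and 7.69 (7.51 ± 0.54). Both were over the level on every array and lowest on replicate 3, with differences from the mean of the other arrays of -0.66 for Ces2g and -0.92 for Ces2e. Ces2 enzymes hydrolyse esters with a small acyl group, and a triglyceride lipase activity has been described for mouse members. The remaining Ces2 genes measured were below it. Ces2b had 5.19, 5.94 and 5.19, with replicate 3 on top, while Ces2a and Ces2f had 3.83 and 3.73 on each array.

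The genes of the Ces2 cluster lay on both sides of the detection level. In GRCm38.p6 their order on chromosome 8 is Ces2a, Ces2b, Ces2c, Ces2e, Ces2f, Ces2g and Ces2h, and Ces2c and Ces2h were not analysed here. Ces2f, between both genes that were over 100, was under the olfactory receptor reference on all arrays. All 7 Ces1 genes measured, which include the major liver carboxylesterases, were below 100, with means between 3.45 (Ces1e) and 3.89 (Ces1a). Ces3a had a level of 4.87 ± 0.10, Ces3b 3.38, Ces4a 4.37 and Ces5a 4.55 by its higher probe set and 3.56 by the other. None of these came near the detection level.

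**Figure D2:**
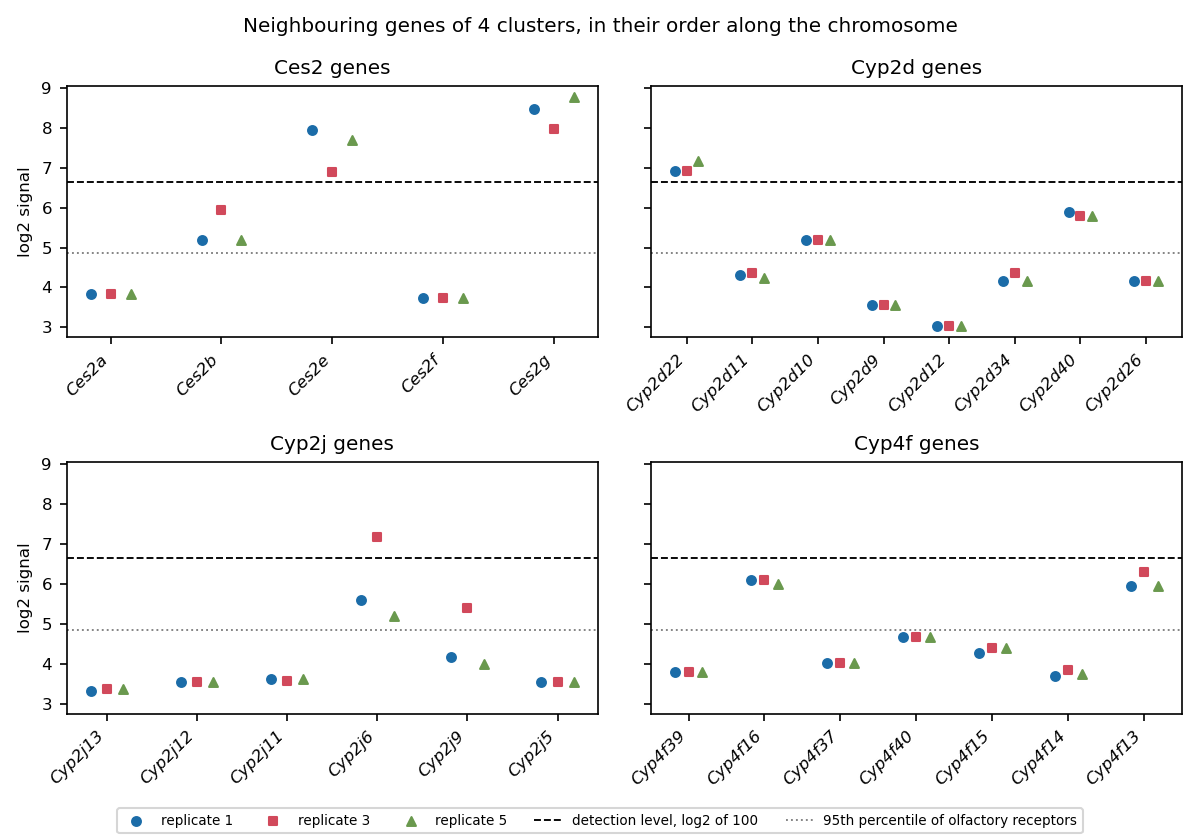
Log2 signal on replicates 1, 3 and 5 (points) for the member genes of the Ces2, Cyp2d, Cyp2j and Cyp4f clusters, in their order along the chromosome. Ces2e and Ces2g are over the detection level (dashed) with Ces2f between them at 3.73, Cyp2d22 is the only Cyp2d gene over it, and Cyp2j6 is over it on replicate 3 only.

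The epoxide hydrolases were divided in the same way. Ephx1, microsomal epoxide hydrolase, which detoxifies epoxides of drugs and of aromatic hydrocarbons, had 7.70, 9.28 and 9.20 on replicates 1, 3 and 5 (8.72 ± 0.89). It was over the level on all arrays, but here replicate 1 was low, and the arrays differed 2.99-fold. Ephx2, soluble epoxide hydrolase, which converts epoxides of arachidonic acid to diols, had 3.12 on each array. Ephx3 and Ephx4 had 3.81 and 3.04 on each array.

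Genes for the synthesis of these arachidonic acid epoxides were low, with a single exception on a single array. Cyp2j6 had 5.61, 7.18 and 5.19 on replicates 1, 3 and 5 (5.99 ± 1.05), over the level only on replicate 3. Its neighbour Cyp2j9 had 4.17, 5.39 and 4.00 and was also highest on replicate 3, but stayed below the level. Whether the probe sets of these related genes detect each other's transcripts was not tested. The other 4 Cyp2j genes did not exceed a mean of 3.60, and Cyp2j5, an abundant epoxygenase of mouse kidney tubules, had 3.56 on each array. All 13 Cyp2c genes were below 100, with a median of 2.99 and the top mean of 3.56 reached by both Cyp2c23 and Cyp2c37.

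Among the CYP1 and CYP3 genes and the CYP2 genes outside the 2C and 2J subfamilies, which include drug metabolising enzymes, only Cyp2d22 was over the level. This gene, often treated as the mouse counterpart of human CYP2D6, had 6.91, 6.91 and 7.16 (6.99 ± 0.14), close above the level on all arrays. At a level of 200 it was not counted, as shown in the closing part. Outside the level lay Cyp2d40, a gene of the same cluster, with 5.89, 5.80 and 5.80. The other 7 Cyp2d genes had means between 2.99 (Cyp2d13) and 5.19 (Cyp2d10). Cyp1a1 and Cyp1a2, inducible enzymes for aromatic hydrocarbons, had 3.04 on each array, and Cyp1b1, which is found in vascular cells, had 4.01, 4.25 and 3.98. All 6 Cyp3a genes were low, with Cyp3a13 at 3.30 on each array. The same value was recorded for Cyp2e1, the ethanol inducible form. The 15 CYP2 genes outside the 2C, 2D and 2J subfamilies, Cyp2e1 included and Cyp2r1 left for the vitamin D group, were all below 100. They hold Cyp2u1, a fatty acid hydroxylase, at 4.98 on each array and Cyp2ab1 with 3.99, 3.70 and 3.56.

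Cyp20a1 had the smallest spread of the member genes over the level, with 8.15, 8.07 and 8.15 (8.12 ± 0.04). Its values on replicates 1 and 5 were exactly the same, so this SD is a limited measure of spread. Its enzyme is an orphan P450 without an established substrate. The range between arrays was 0.07 on the log2 scale, against 1.76 for Cyp4b1.

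P450s of steroid, sterol and vitamin metabolism were all below 100. The 5 genes of steroid hormone synthesis had a median of 3.84, and Cyp11b2, aldosterone synthase, had 4.95 on each array. Cyp39a1, an oxysterol hydroxylase of bile acid synthesis, had 5.00, 5.99 and 5.00, so that only replicate 3 stood out. Cyp27a1, the sterol 27-hydroxylase, had 5.04, and Cyp7b1 2.82. Cyp2r1, a vitamin D 25-hydroxylase, had 5.53, 5.28 and 4.09, with replicate 5 lowest, whereas Cyp27b1, the renal 1-alpha-hydroxylase of the proximal tubule, had 4.17 on each array. Cyp26b1, which clears retinoic acid, had 5.38, 5.54 and 5.38.

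**Figure D3:**
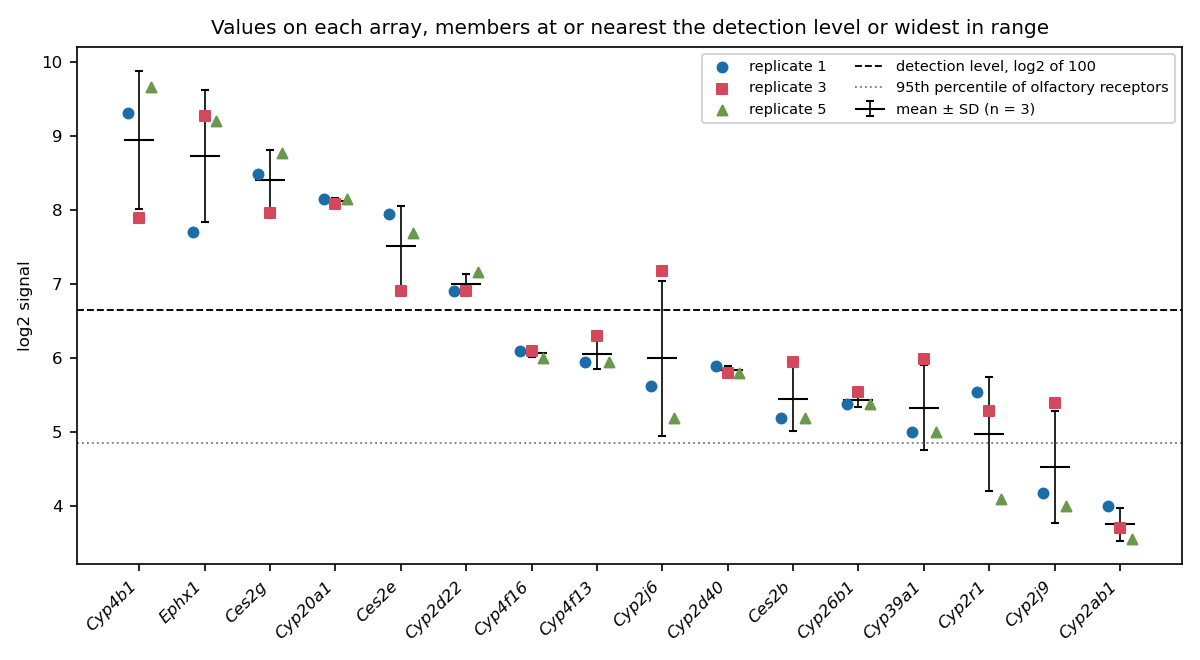
Log2 signal on replicates 1 (circles), 3 (squares) and 5 (triangles) with mean ± SD (n = 3) for the members at or nearest the detection level (dashed) and those widest in range, and the olfactory receptor reference (dotted). Cyp4b1, Ces2g and Ces2e are lowest on replicate 3, Ephx1 is lowest on replicate 1, and Cyp2j6 crosses the dashed line on replicate 3 alone.

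Few members differed widely between arrays and most had identical values, as was so over all genes. The highest and lowest array were over 2-fold apart for 6 members (5.88%), against 5.07% of all genes. These were Cyp2j6 (3.96-fold), Cyp4b1, Ephx1, Cyp2r1, Cyp2j9 and Ces2e (2.06-fold), of which Cyp2r1 and Cyp2j9 were below 100 throughout. Without replicate 3 the count was 2, Ephx1 and Cyp2r1. At the other end, 65 members (63.7%) had identical values on all arrays, against 55.2% of all genes, and none of these was above 5.19. For such genes the SD of 0 does not measure biological spread. A further 23 members, Cyp20a1 and Cyp2d22 among them, had the same value on 2 arrays, which limits their SD too.

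Of the 7 members at or above 100 on any array, 4 were lowest on replicate 3, namely Cyp4b1, Ces2g, Ces2e and, by 0.07, Cyp20a1. Another 2 were highest on it, Ephx1, at 9.28 against 9.20 on replicate 5, and Cyp2j6. Cyp2j6 is in this set through replicate 3 only, so its place there was fixed by the choice of the set. Of the 6 members over 2-fold apart, 2 were lowest and 3 highest on replicate 3, against 47.5% and 33.2% of all genes over 2-fold apart. Of 10 endothelial markers 7 were lowest on that array, and the median difference of the 10 from the mean of the other arrays was -0.51. Eng, Icam2 and Erg were lowest on replicate 1, and Erg had 8.49, 8.64 and 8.65 on replicates 1, 3 and 5. The widest differences were those of Kdr and Ehd3. Kdr, a VEGF receptor, had 10.83, 9.53 and 11.18 on replicates 1, 3 and 5, and Ehd3 had 10.60, 9.51 and 11.00. The summed linear level of the 10 markers was 18210 on replicate 1, 12106 on replicate 3 and 20926 on replicate 5. Among all genes at or above 100 on every array, 26.9% were lowest on replicate 3 and 20.2% highest. Unlike the 7 members, these genes were chosen by every array and not by any array. The part of this difference between arrays in the values of Cyp4b1, Ces2g and Ces2e was not tested.

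Some of these enzymes are known from the proximal tubule, and its markers were read beside them. All 13 measured proximal tubule markers were called below the level by limma (72.5% of all probe sets were), among them Slc34a1 at 5.37 and Lrp2 at 4.33. Their summed linear level was 294, 302 and 307 on replicates 1, 3 and 5. The 10 endothelial markers were all called above (15.8% of all probe sets). The 6 distal nephron, 6 mesangial and 8 leukocyte markers were all called below (without replicate 5 the mesangial marker Itga8 was called neither), and of 5 podocyte markers 4 were below and Podxl, which endothelium also expresses, above. What part RNA of other cell types has in the levels of the members was not tested.

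Genes that work with the enzymes but lie outside the symbol pattern could be tested against the level, and 12 of 54 measured (22.2%) were called above by limma, 33 (61.1%) below and 9 neither, against 15.8% above and 72.5% below over all probe sets. The list was drawn up with earlier results of these data known. Of 7 electron transfer partners 3 were above. Cyb5r3, the NADH reductase of cytochrome b5, was at 8.96 ± 0.13 (adjusted p = 0.000137), Cyb5a at 8.41 on each array (adjusted p = 0.000223) and Fdx1, the ferredoxin of mitochondrial P450s, at 8.20 ± 0.27 (adjusted p = 0.000949). Of 9 genes of heme synthesis and breakdown, Hmox2, the constitutive heme oxygenase, was above at 7.45 on each array (adjusted p = 0.00309) and 6 were below. These 6 included Alas1, the first enzyme of heme synthesis, at 5.88 on each array, and the inducible heme oxygenase Hmox1 at 5.06 ± 0.19.

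Of 11 transcriptional regulators, 3 were called above by limma and 8 below, where 15.8% and 72.5% of all probe sets were, so the count below was near that background. Ahr, the aryl hydrocarbon receptor, was above at 7.40 ± 0.03 (adjusted p = 0.00398), as was its partner Arnt at 7.10 on each array (adjusted p = 0.0209). None of the genes read here as targets of the receptor was over the level, and its activity was not tested. Besides Cyp1a1, Cyp1a2 and Cyp1b1, Nqo1 at 3.43, Aldh3a1 at 3.86 and the receptor's repressor Ahrr at 4.06 were low on each array, and Tiparp was called neither at 6.42. Nfe2l2, which encodes NRF2, a transcription factor of the oxidant response, was at 9.48 ± 0.26 (adjusted p = 0.000136). The xenobiotic receptor genes Nr1i2 (PXR) at 4.17 ± 0.02 and Nr1i3 (CAR) at 4.54 were below, and so were Ppara at 4.02, which drives Cyp4a genes in liver, and Hnf4a at 5.37.

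Other esterases and conjugating enzymes were mixed. Of 11 esterases and lipases, 3 were called above and 7 below by limma, beside the same 15.8% and 72.5% of all probe sets. Mgll, monoacylglycerol lipase, had 9.55, 7.67 and 10.06 on replicates 1, 3 and 5 (adjusted p = 0.0114) and was, like Cyp4b1, lowest on replicate 3. Without replicate 1 its limma call was lost (adjusted p = 0.0517). Pon2, a lactonase, was at 7.59 on each array (adjusted p = 0.0018) and Esd, esterase D, at 7.86 ± 0.30 (adjusted p = 0.00263), while Aadac, Bche and Pon1 were at or under 3.38. Of 10 conjugating enzymes, 2 were called above, 6 below and 2 neither by limma, beside the same shares of all probe sets. The glutathione transferases Gstp1 at 10.23 ± 0.45 (adjusted p = 0.000168) and Gstm1 at 8.14 ± 0.31 (adjusted p = 0.00134) were above. Those below included the transferases Gstt1 at 5.21 on each array and Gsta4 at 6.13 ± 0.32. The 3 P450 genes read outside the pattern were below. Cyp51, lanosterol demethylase, was at 4.77 on each array, Tbxas1, thromboxane synthase, at 5.25 and Ptgis, prostacyclin synthase, at 5.37 ± 0.15. Other P450 genes outside it, such as Cyp4a12a, Cyp4a12b and Cyp4a30b, were not analysed here. These p-values rest on the spread among 3 samples and on a variance prior estimated from other probe sets. For genes with the same value on every array, such as Cyb5a, Hmox2, Arnt and Pon2, a variance of 0 was combined with the prior. That made their p-values smaller than the prior alone would give. Identical values do not measure biological spread, so these p-values are a limited guide. Ahr had the same value on replicates 1 and 5, so its spread is a limited measure too.

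**Figure D4:**
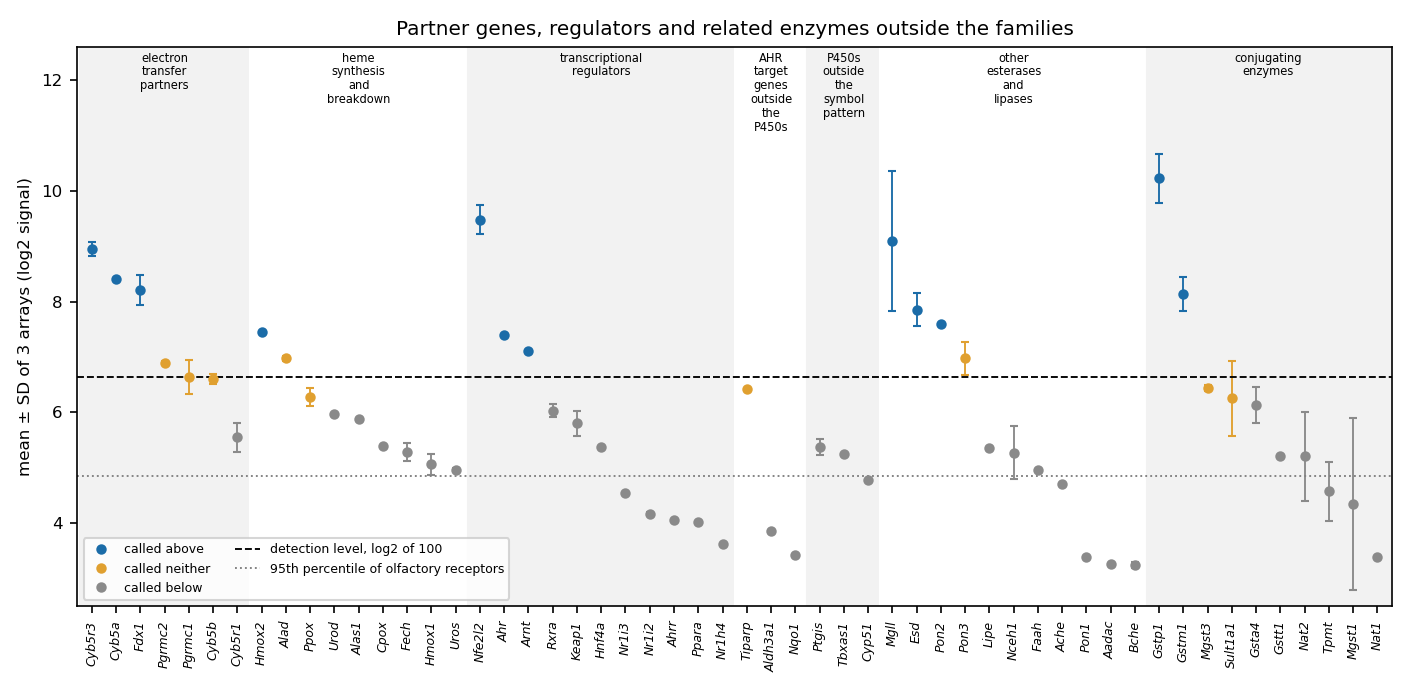
Mean log2 signal ± SD over 3 arrays for 54 partner genes, regulators and related enzymes, by list, with the limma call against the detection level of 100 (dashed) in colour and the olfactory receptor reference (dotted). In blue are the 12 genes called above, from Arnt at 7.10 to Gstp1 at 10.23.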

How the data were processed

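RNA of the sorted cells was amplified once (WT-Ovation Pico) for hybridisation to Mouse Gene 1.0 ST arrays. The authors deposited log2 signals per probe set, made with Affymetrix Expression Console according to the submitters' processing notes, with no version named. The study names RMA for its own analysis. The set of arrays that entered the normalization is not stated in these sources. Raw array files were not used here, so the processing behind the identical values was not examined. The number of arrays, 3, limits the precision. Array medians were 4.85, 4.80 and 4.79 on replicates 1, 3 and 5.

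By the platform annotation, 21789 probe sets name a single gene, and they stand for 19938 genes. The pattern was met by 103 probe sets for 102 genes, with Ces5a measured by 2 probe sets, of which the one with the higher mean was used. Of the 117 protein-coding genes in the RefSeq annotation of GRCm38.p6 whose symbols fit, 101 were among these, 7 occurred only in probe sets that name several genes, and 9 were not analysed here. Protein sequences were not used here.

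The members and all lists were chosen with earlier results of these data known. Members were counted by whether every array was at or above 100, the number of the study's filter on raw values, and were not tested. Other genes were tested with limma 3.58.1 in R 4.3.3, as an intercept-only fit over 21789 probe sets that set the mean against the log2 detection level, two-sided, at a Benjamini-Hochberg adjusted p of 0.05. The prior for the variance (SD 0.288, 2.03 degrees of freedom) was estimated on 4406 probe sets whose 3 values all differ. The fit was also run on simulated data, with spreads drawn from the fitted prior and identical rows placed at random. That run cannot check whether the prior or the treatment of identical values suits these arrays. Genes named were those at or above 100 on any array, the 5 nearest below, the 10 widest in range, the epoxide hydrolases, the top member of each other role group and partner genes called above. Further members are named for their known role. Values were called identical within 1e-09. The alternatives were levels of 50, 200 and the olfactory receptor percentile, other rules for probe sets, ranges and the variance prior, and leaving out each array.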

Additional observations from a re-analysis of the deposited data

How the results depend on the processing

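The number of members at or above the detection level on all arrays depended on the level. It was 9 at a level of 50, 4 at 200 and 18 at the olfactory receptor percentile, against 6 at 100. At 200 Ces2e and Cyp2d22 were no longer counted. Over all genes 33.5%, 8.96% and 52.7% were at or above these levels. Leaving out any array gave 6 throughout, and between 95 and 96 members below. The median level of the members was between 3.64 (without replicate 1) and 3.68. Members over 2-fold apart numbered between 2 and 5 when an array was left out, with 2 without replicate 3, in part by construction, since dropping an array can only narrow a range. Of the partner genes, 21 were called above and 19 below at a level of 50, and 6 above at 200, against 12 above and 33 below at 100. Leaving out an array gave between 11 and 14 above and between 31 and 33 below. Mgll was no longer above without replicate 1 (limma, adjusted p = 0.0517), and Gsta4 and Mgst1 were called neither without replicate 1 (adjusted p = 0.101 and 0.0964). Gsta4 was also lost without replicate 3 (limma, adjusted p = 0.0699) and Mgst1 without replicate 5 (adjusted p = 0.104). Without replicate 3, Alad and Pon3 were called above and Ppox below (limma, adjusted p = 0.0476, 0.0189 and 0.045). With the variance prior from all probe sets 14 were above and 33 below. The other settings stayed within 1.5 times of the counts given. No paired analysis was possible because all arrays belong to 1 group.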

Other observations

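Probe sets that name several genes were left out of the counts. There were 7 with at least 1 gene of the families, and all were below 100 on every array. The probe set shared by Cyp4v3, a fatty acid hydroxylase gene, and Klkb1, the gene of plasma prekallikrein, had 5.39 on each array. That shared by Cyp4a10, Cyp4a31 and Cyp4a32 had 5.15, while the probe sets of Cyp4a10 and Cyp4a31 alone had levels of 3.52 ± 0.18 and 2.33. The probe set of Cyp2a4 and Cyp2a5 had 4.10.

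Different members sometimes held the very same value. Of the 65 members with identical values on all arrays, 21 shared their value with another member. The value 3.56 was recorded on every array for Ces1d, Cyp2c23, Cyp2c37, Cyp2j5, Cyp2t4 and Cyp4a14 and for 250 probe sets in the whole table. The value 3.30 was recorded for Cyp2c54, Cyp2e1, Cyp3a13 and Cyp7a1 and for 254 probe sets. Differences between low members therefore carry less information than the printed decimals imply.

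Of the 23 members with the same value on 2 arrays and another on the remaining array, the differing array was replicate 3 for 10, replicate 5 for 8 and replicate 1 for 5.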
